A study of Mus musculus with 24 samples.

Results

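The genes described here are 42 genes of DNA replication and cell division, a list of names that was drawn up with results of these data known, so counts over it are descriptions. The list holds 13 replication genes, 3 G1 cyclins and 26 genes of mitosis. For each gene the probe with the highest mean over the 24 arrays was used, and it had to lie above background on at least 3 arrays. That left 34 of the 42 genes among 15027 genes tested: 12 replication genes, the 3 G1 cyclins and 19 mitosis genes. Ccnb1 and Mki67 had no probe under their own name, so the usual histological proliferation marker was not measured. Gmnn, Ccna2, Ccnb2, Bub1, Ube2c and Racgap1 were above background on at most 1 array and were not tested. Of the 34 tested genes, 26 were above background on all 24 arrays, while Kif20a was above it on 3, Stmn1 on 15, Pcna on 16, Spc25 on 18, Kif11 on 19 and Rrm2, Ccne1 and Ccne2 on 22 each.

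RNA came from subcutaneous fat of C57BL/6J mice and was hybridised as biotin-labelled cRNA to Illumina BeadChip arrays, 3 arrays per group. The 8 groups were Adn-PPARγ-/- mice and their control littermates after 3 days of doxycycline chow, and Adn-C/EBPα-/- mice and their control littermates after 3 days of doxycycline chow, 3 days of doxycycline high fat diet or 1 month of doxycycline high fat diet. Controls received doxycycline as well, and the labels give ages of 10 weeks for the groups at 3 days and 14 weeks for those at 1 month. The comparisons address which transcripts of mature fat cells depend on each of the 2 transcription factors, since C/EBPα and PPARγ both maintain the fat cell programme. The labels do not spell out the Adn promoter, and they do not say that the 3 arrays of a group came from separate animals. A p-value or standard error here therefore rests on the scatter of arrays within groups, pooled over the 8 groups. That scatter could be technical.

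A dividing cell first licenses its replication origins in G1 by loading the MCM helicase with the help of Cdc6, then copies its DNA in S phase from nucleotides made by thymidylate synthase, ribonucleotide reductase and thymidine kinase. It then condenses, aligns and separates its chromosomes under the control of cyclin-dependent, Polo and Aurora kinases, the spindle checkpoint and the anaphase promoting complex. Transcripts of replication genes are mostly driven by E2F factors, and those of mitosis genes by complexes that bind CHR and CCAAT elements in their promoters. Mature fat cells are post-mitotic, and dividing cells of fat are mainly progenitors, blood vessel cells and immune cells.

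Promoter letters differed in frequency between the replication and the mitosis genes, a property that the choice of genes and the arrays did not use. RefSeq promoters of the GRCm38.p6 assembly, 250 bases before to 50 after the start of transcription, were found for 33 of the 42 genes, 35 promoters in all. The letters searched on both strands were TTTNNCGC with C or G at each N (E2F-type), CCAAT, and TTTGAA or TTCGAA (CHR-type). CHR-type letters stood in 19 of 22 promoters of mitosis genes, 86.4% (95% Wilson interval 66.7% to 95.3%), in 2 of 12 promoters of replication genes, 16.7%, and in 19.2% of all 32851 promoters. In the 250 bases before the start alone, the mitosis share was 10 of 22, 45.5%, against 16.7% of replication and 17.1% of all promoters. CCAAT was present in 90.9% of mitosis, 75% of replication and 37.4% of all promoters. E2F-type letters stood in 5 of 12 replication promoters, 41.7% (19.3% to 68.1%), in 0 of 22 mitosis promoters (interval up to 14.9%) and in 2.26% of all promoters. A match is a description of the letters and not evidence of binding. The intervals treat promoters as independent draws, which related genes are not.

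The following stretches lie directly upstream of the start of transcription. They are shown because they carry the letters whose shares differed between the classes, in genes whose levels are described next. Cdc6 and Cdkn3 among them were higher in all 4 knockout comparisons. Capitals mark CCAAT, which reads ATTGG on the other strand, the CHR-type letters, where TTCAAA is TTTGAA on the other strand, and the E2F-type letters, of which the matches on both strands overlap at one end of the Mcm5 and Mcm6 stretches. The first 4 are mitosis genes and the last 3 replication genes.
Top2a, chr11:99024190-99024339, minus strand: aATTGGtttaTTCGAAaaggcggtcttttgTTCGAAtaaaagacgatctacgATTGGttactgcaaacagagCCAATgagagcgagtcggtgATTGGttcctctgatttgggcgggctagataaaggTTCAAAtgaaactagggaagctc
Cdc20, chr4:118437344-118437403, minus strand: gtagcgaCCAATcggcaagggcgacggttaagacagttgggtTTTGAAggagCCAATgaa
Kif22, chr7:127042421-127042480, minus strand: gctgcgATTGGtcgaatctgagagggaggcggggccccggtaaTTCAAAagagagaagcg
Cdkn3, chr14:46760391-46760540, plus strand: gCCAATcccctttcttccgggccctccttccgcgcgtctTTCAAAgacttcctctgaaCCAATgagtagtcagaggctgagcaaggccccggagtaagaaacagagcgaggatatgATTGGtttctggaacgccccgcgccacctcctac
Cdc6, chr11:98908011-98908150, plus strand: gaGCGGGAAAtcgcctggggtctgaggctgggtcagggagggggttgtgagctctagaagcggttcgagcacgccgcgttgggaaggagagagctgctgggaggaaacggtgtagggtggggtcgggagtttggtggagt
Mcm5, chr8:75109349-75109508, plus strand: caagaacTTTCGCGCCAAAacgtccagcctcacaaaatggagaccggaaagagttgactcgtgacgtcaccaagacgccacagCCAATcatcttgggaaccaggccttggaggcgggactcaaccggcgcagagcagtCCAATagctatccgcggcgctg
Mcm6, chr1:128359706-128359820, minus strand: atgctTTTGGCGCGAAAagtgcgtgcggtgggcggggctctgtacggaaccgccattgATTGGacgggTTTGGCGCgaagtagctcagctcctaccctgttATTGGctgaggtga

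Levels are given as background-corrected intensity in arbitrary units. A log2 fold change, knockout minus control, was taken after adding 16 to each intensity, so changes of dim genes are understated. A gene was called changed when its adjusted p was below 0.05 in limma with Benjamini-Hochberg adjustment over the 15027 genes. Judged by the values, each of the 4 sets, a knockout group with its controls, had been normalized on its own. Levels are therefore not compared between sets, and levels of different probes are not compared with each other. Cebpa, the deleted gene, fell by 1.00 (log2) in the Adn-C/EBPα-/- arrays on chow, fell by 2.08 at 3 days of high fat diet and fell by 3.48 at 1 month, and its 3 knockout arrays lay below the 3 controls each time. Cebpa also fell by 1.38 in the arrays labelled Adn-PPARγ-/-, so both chow knockouts had less of it. The Pparg probe fell by 0.43 at 3 days and fell by 0.54 at 1 month of high fat diet after C/EBPα loss. It instead read 1.10 (log2) higher in the arrays labelled Adn-PPARγ-/-. Whether it lies outside the deleted part is not given in the sources used here, so it does not check that label.

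Loss of PPARγ for 3 days on chow went with higher levels of both classes. In the arrays labelled Adn-PPARγ-/-, 15 of the 34 genes rose and none fell, where 4.49% of all genes tested rose and 4.46% fell. They were 5 of 12 replication genes, 10 of 19 mitosis genes and none of the 3 G1 cyclins. The median log2 fold change was 0.46 over the replication genes and 0.55 over the mitosis genes, against 0.01 over all genes. In 25 of the 34 genes all 3 knockout arrays lay above all 3 controls, as in 16.3% of all genes. In whole tissue, more cells of a dividing type and more of these RNAs per cell cannot be told apart.

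**Figure D1:**
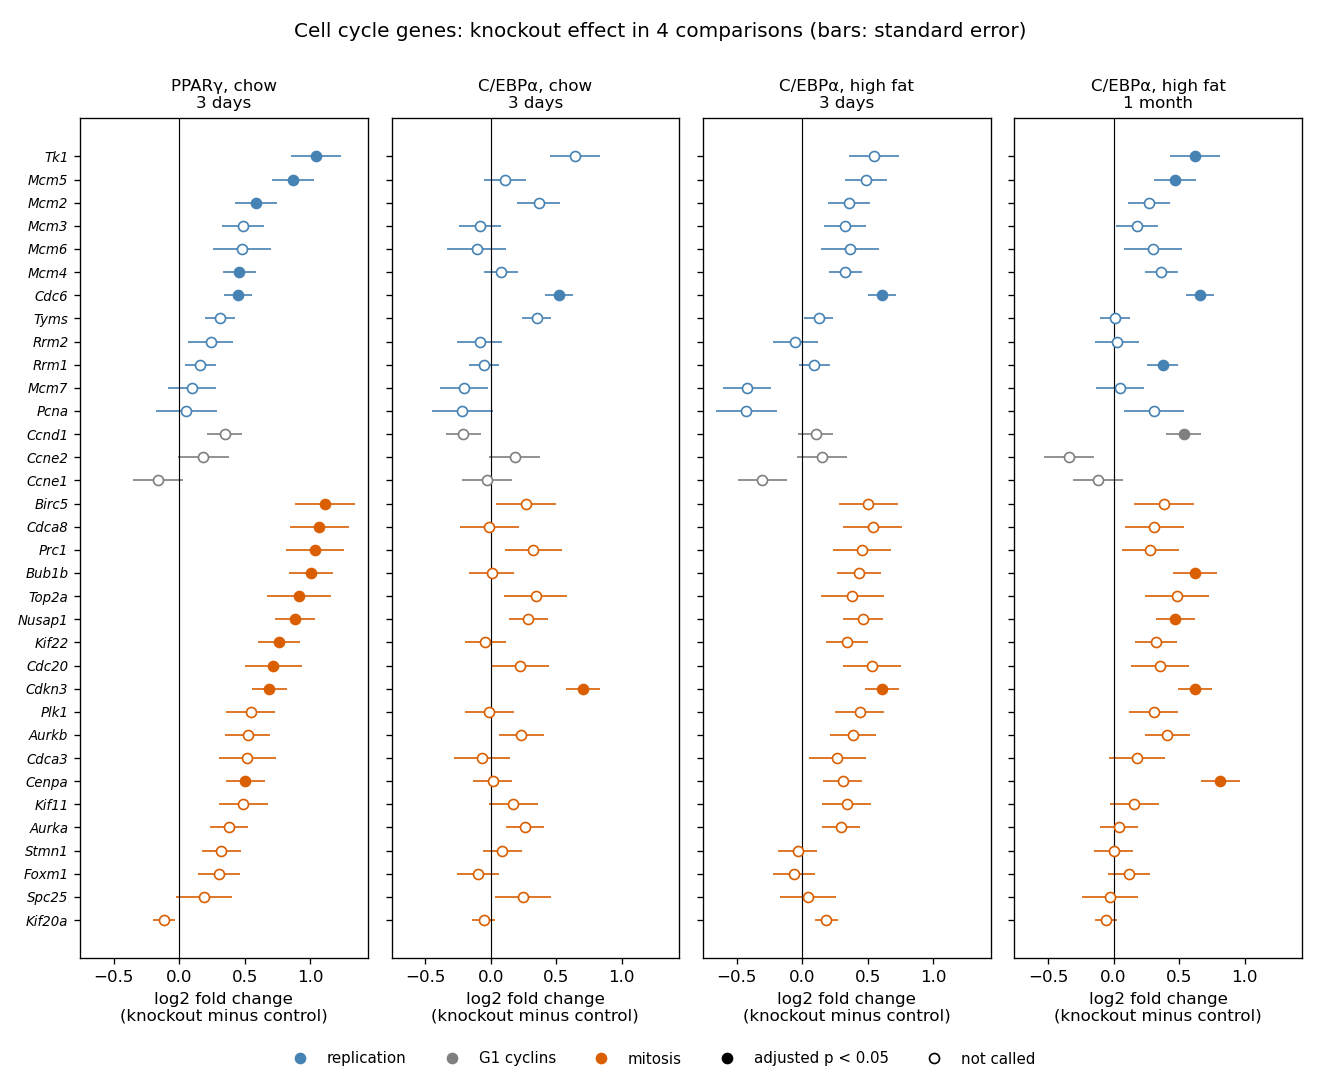
Log2 fold change, knockout minus control, with its standard error for the 34 tested genes in the 4 comparisons (3 arrays a group); blue marks replication genes, grey G1 cyclins and orange mitosis genes, and filled points passed the test. Filled points are frequent after PPARγ loss and at 1 month of high fat diet, and Cdc6 and Cdkn3 are filled in all 4 panels.

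Of the origin licensing and replication fork genes, 4 of 8 tested rose. Mcm2, Mcm3, Mcm4, Mcm5, Mcm6 and Mcm7 encode the 6 subunits of the replicative helicase. Mcm5 read 455, 506 and 405 in the Adn-PPARγ-/- arrays, against 222, 204 and 309 in the control arrays. The groups did not overlap, and the log2 fold change was 0.87 ± 0.16 (SE, n = 3 each; limma adjusted p 0.00137). Mcm2 read 78.6, 112 and 107 in the knockouts, against 57.1, 54.1 and 69.8 in the controls (0.59 ± 0.16, limma adjusted p 0.0270). Mcm4 read 1087, 1224 and 1087 in the knockouts, against 748, 782 and 935 in the controls (0.46 ± 0.13, limma adjusted p 0.0273). Both pairs of groups stood apart. Mcm3 and Mcm6 also stood apart without passing the test: Mcm3 read 63.6, 66.6 and 62.4 in the knockouts, against 39.8, 29.5 and 58.2 in the controls (limma adjusted p 0.0640). Mcm6 read 175, 155 and 187 in the knockouts, against 91.6, 145 and 125 in the controls (limma adjusted p 0.211). For Mcm7 the groups overlapped, with 69.2, 57.4 and 79.9 in the knockouts, against 60.4, 66.1 and 62.2 in the controls, a log2 fold change of 0.10.

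Cdc6, the loader of the MCM helicase onto origins, read 50.8, 63.7 and 66.0 in the Adn-PPARγ-/- arrays, against 39.7, 38.8 and 40.1 in the control arrays. The knockouts were more variable than the controls but all above them (0.45 ± 0.11, limma adjusted p 0.0108). Pcna, the sliding clamp of the replication fork, was dim here and its groups overlapped, with 7.90, 15.9 and 12.4 in the knockouts, against 12.6, 6.67 and 13.8 in the controls. Among the genes of nucleotide supply 1 of 4 rose. Tk1, which salvages thymidine, read 85.6, 70.9 and 102 in the knockouts, against 29.4, 25.0 and 47.7 in the controls. This was a log2 fold change of 1.04 ± 0.19 (limma adjusted p 0.00118), with no overlap. Tyms, which makes thymidylate afresh, had 0.31 (limma adjusted p 0.0927), and the ribonucleotide reductase subunits Rrm1 and Rrm2 had 0.16 and 0.24, none of them past the test.

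The G1 cyclins, which drive the step into S phase, did not pass the test after PPARγ loss. Ccnd1 read 1706, 2324 and 1772 in the Adn-PPARγ-/- arrays, against 1553, 1352 and 1615 in the control arrays, groups apart but with a log2 fold change of 0.35 (limma adjusted p 0.113). Ccne1 and Ccne2, the partners of CDK2 at the start of S phase, had -0.16 and 0.18.

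Among the mitotic kinases and checkpoint proteins 3 of 6 rose, with a median log2 fold change of 0.78. Bub1b, the spindle checkpoint protein BubR1, read 217, 168 and 211 in the Adn-PPARγ-/- arrays, against 92.1, 75.5 and 106 in the control arrays (1.00 ± 0.17, limma adjusted p 0.000622). Birc5 (survivin) and Cdca8 (borealin) belong to the chromosomal passenger complex with the kinase Aurkb. Birc5 read 161, 145 and 185 in the knockouts, against 59.2, 50.5 and 97.8 in the controls (1.11 ± 0.23, limma adjusted p 0.00315). Cdca8 read 132, 144 and 134 in the knockouts, against 58.3, 38.8 and 78.9 in the controls (1.07 ± 0.23, limma adjusted p 0.00423). None of these 3 genes had overlapping groups. Aurkb itself had 0.52 (limma adjusted p 0.0640), the Polo kinase Plk1 0.55 (0.0746) and the spindle pole kinase Aurka 0.38, all below the threshold for a call.

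Of the spindle and cytokinesis genes 3 of 6 rose. Prc1, which bundles microtubules of the central spindle, read 340.1, 367 and 378 in the Adn-PPARγ-/- arrays, against 150.5, 141 and 225 in the control arrays (1.03 ± 0.22, limma adjusted p 0.00457). Nusap1, a spindle microtubule stabiliser, read 86.0, 106 and 109 in the knockouts, against 41.8, 54.7 and 44.7 in the controls (0.88 ± 0.15, limma adjusted p 0.000657). Kif22, a kinesin that moves chromosome arms, read 127, 154 and 135 in the knockouts, against 70.5, 60.5 and 98.5 in the controls (0.76 ± 0.16, limma adjusted p 0.00392). Knockouts and controls of all 3 were fully apart. The spindle motor Kif11 had 0.49 (limma adjusted p 0.115), the microtubule destabiliser Stmn1 0.32 and the cytokinesis kinesin Kif20a -0.12, the last near background throughout.

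Top2a, the topoisomerase that untangles replicated chromosomes, read 92.8, 97.0 and 118 in the Adn-PPARγ-/- arrays, against 47.5, 35.3 and 59.7 in the control arrays (0.91 ± 0.24, limma adjusted p 0.0206). The knockouts were all above the controls. Cenpa, the histone H3 variant of centromeres, rose by 0.50 ± 0.15 (limma adjusted p 0.0382), whereas the kinetochore subunit Spc25 had 0.19. Cdc20, the activator of the anaphase promoting complex, rose by 0.72 ± 0.22 (limma adjusted p 0.0453). Cdkn3, a phosphatase that acts on cyclin-dependent kinases, read 107, 113 and 103 in the knockouts, against 49.7, 59.0 and 75.4 in the controls (0.69 ± 0.13, limma adjusted p 0.00190), again without overlap. Foxm1, the transcription factor of the mitosis programme, had 0.30, and Cdca3, an adaptor for destruction of the mitosis inhibitor Wee1, had 0.52 (limma adjusted p 0.155).

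**Figure D2:**
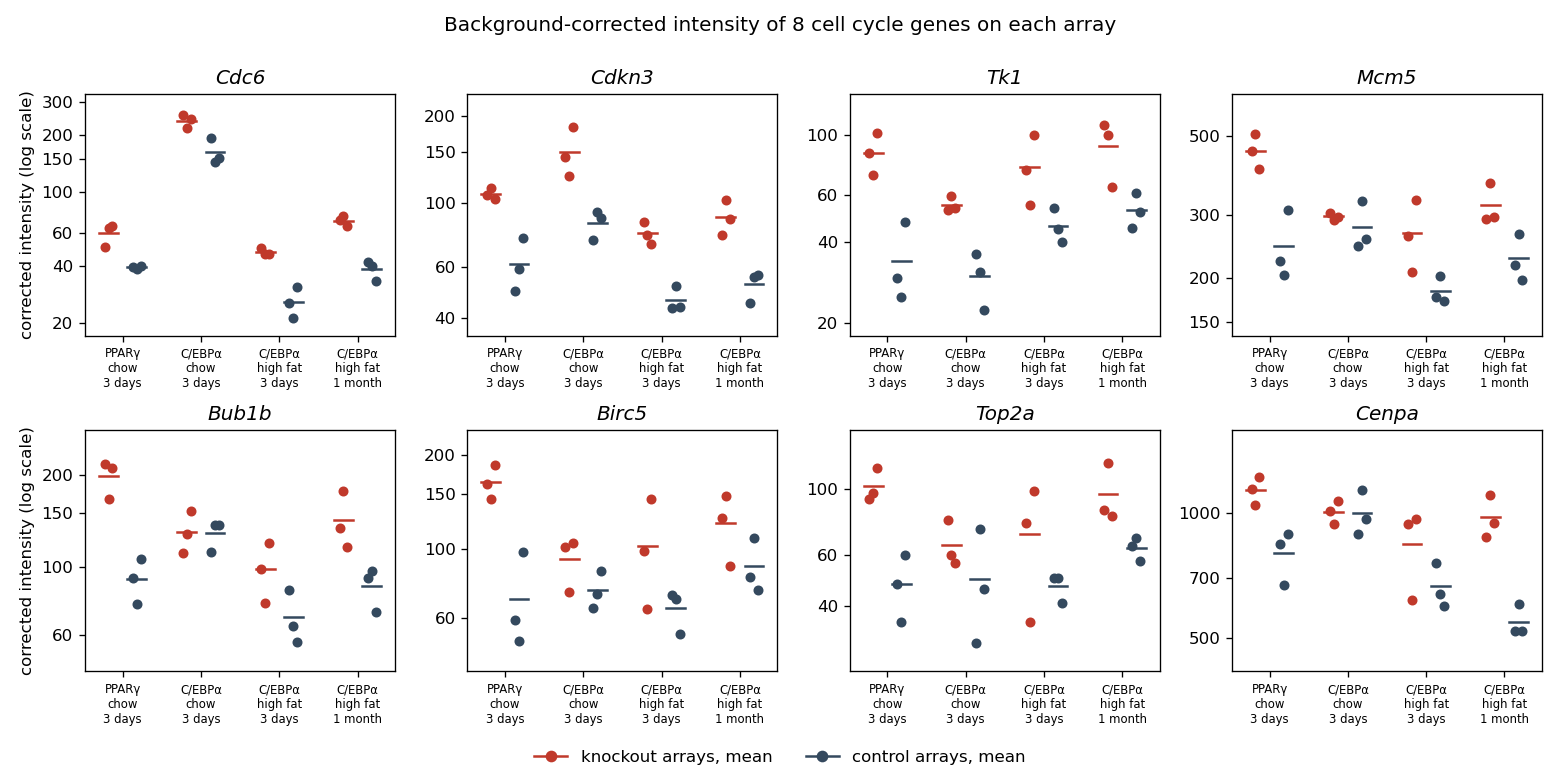
Background-corrected intensity (log axis, arbitrary units) of 8 genes on each array of the 4 sets, knockouts in red to the left of their controls in dark grey, with bars at group means. Cdc6 and Cdkn3 knockouts lie above their controls in every set, and Top2a, Birc5 and Bub1b do so after PPARγ loss.

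These counts rested on few arrays. Without Adn-PPARγ-/- replicate 2 or replicate 3 only 9 of the 34 genes passed the test, and without control replicate 3, the control array with the highest levels, 18 did. Bub1b, Nusap1, Tk1, Mcm5, Cdkn3, Birc5, Kif22, Cdca8 and Prc1 passed whichever array was left out. Cdc6 did not pass without knockout replicate 2 or 3 (largest limma adjusted p 0.0561). Mcm2 and Top2a did not pass without knockout replicate 2, knockout replicate 3, control replicate 1 or control replicate 2, and Mcm4, Cdc20 and Cenpa did not pass without any 1 of those or without knockout replicate 1. Other probes of the same genes differed in size: another Bub1b probe had 0.37 (limma adjusted p over all probes 0.142) and another Cdca8 probe 0.54 (0.121), while all 3 Birc5 probes passed, with 0.91 to 1.11. Another Cdca3 probe passed, with 0.76 (limma adjusted p over all probes 0.000411), where the brighter one did not. The 4 Cdc20 probes ranged over 0.27 (0.534) to 1.00 (0.0130). Dim additional probes of other called genes, above background on 3 to 12 arrays, did not pass. They had 0.08 (0.887) for Tk1, 0.16 (0.684) for Cenpa, 0.44 (0.0962) for Top2a, and 0.08 (0.849) and 0.15 (0.594) for Mcm4.

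On the same chow diet and time, loss of C/EBPα raised 2 of the 34 genes, Cdc6 and Cdkn3, and lowered none, where 0.539% of all genes rose and 0.552% fell. Cdc6 read 255, 219 and 243 in the Adn-C/EBPα-/- arrays, against 193, 144 and 151 in the control arrays (0.52 ± 0.11, limma adjusted p 0.0193). Cdkn3 read 144, 124 and 184 in the knockouts, against 74.7, 93.0 and 89.2 in the controls (0.70 ± 0.13, limma adjusted p 0.0117). Neither gene had overlapping groups. Both calls were lost without knockout replicate 3 (Cdkn3 limma adjusted p 0.0510), and that of Cdc6 also without knockout replicate 1, control replicate 2 or control replicate 3 (largest 0.0750). Neither gene passed when the fit held only the 6 arrays of this set or weighted the arrays by quality. The median log2 fold change was 0.01 over the replication genes and 0.17 over the mitosis genes, and knockouts lay above controls in 6 of the 34 genes, against 9.49% of all genes.

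Many of the genes that rose after PPARγ loss had overlapping groups here. Bub1b read 111, 128 and 152 in the Adn-C/EBPα-/- arrays on chow, against 112, 138 and 138 in the control arrays, a log2 fold change of 0.01. Top2a read 78.5, 59.9 and 56.2 in the knockouts, against 30.0, 73.3 and 45.7 in the controls (0.34). Mcm5 read 305, 291 and 297 in the knockouts, against 245, 328 and 257 in the controls (0.11). In all 3 genes a control array lay inside or above the knockout range. Tk1, Prc1 and Nusap1 were exceptions whose groups stood apart without passing the test. Tk1 had 52.9, 59.2 and 53.6 in the knockouts, against 36.2, 31.0 and 22.5 in the controls (0.64 ± 0.19, limma adjusted p 0.0993). Mcm7 was the 1 gene whose knockouts all lay below the controls, as in 8.15% of all genes, with 127, 121 and 103 in the knockouts, against 137, 134 and 139 in the controls (-0.20, not called). Ccnd1 overlapped, with 2118, 2093 and 1577 in the knockouts, against 2411, 2208 and 2032 in the controls (-0.21). Pcna overlapped too, with 149, 85.7 and 84.8 in the knockouts, against 124, 105 and 139.8 in the controls (-0.22).

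The difference between the 2 knockout effects on chow was tested directly. It passed for 1 of the 34 genes, Bub1b, where PPARγ minus C/EBPα was 1.00 ± 0.24 (log2; limma adjusted p 0.0280), where 1.22% of all genes passed in that direction and 1.66% in the other. Cdca8 had a difference of 1.08 (limma adjusted p 0.0733), Kif22 0.80 (0.0588) and Mcm5 0.76 (0.0764), which did not pass. At an unadjusted p below 0.05 it held for 12 of the 34 genes and 2761 of all genes. The median difference was 0.31 over the replication genes, 0.49 over the mitosis genes and 0.01 over all genes. The Bub1b difference did not pass in 8 of 12 fits that each left out 1 of the 12 arrays (largest limma adjusted p 0.0915), and another Bub1b probe had effects of 0.37 and -0.04. By that probe the effects of the 2 knockouts lay closer together.

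After 3 days of high fat diet, Cdc6 and Cdkn3 again rose in the Adn-C/EBPα-/- arrays, and these were 2 of 34 genes called, with none lower, where 0.765% of all genes rose and 1.46% fell. Cdc6 read 50.3, 46.2 and 46.8 in the knockouts, against 25.6, 21.3 and 30.9 in the controls (0.61 ± 0.11, limma adjusted p 0.00257). Cdkn3 read 86.3, 77.6 and 72.2 in the knockouts, against 43.3, 51.5 and 43.5 in the controls (0.61 ± 0.13, limma adjusted p 0.0136). Both had wide gaps between the groups. Cdc6 passed whichever array was left out, and Cdkn3 did not pass without knockout replicate 1, control replicate 1 or control replicate 3 (largest 0.0798). Neither passed when the fit held only the 6 arrays of this set. The log2 fold change was positive in 28 of the 34 genes, Cdc6 and Cdkn3 included (82.4%, against 51.3% of all genes), and negative in 6, among them Pcna with -0.43, Mcm7 with -0.42 and Ccne1 with -0.30. Its median was 0.33 over the replication genes and 0.38 over the mitosis genes. An unadjusted p below 0.05 was reached by 17 of the 34 genes, against 2012 of all genes, and knockouts lay above controls in 9 of them, against 8.8% of all genes.

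At 3 days of high fat diet the knockout arrays differed among themselves, with replicate 2 lowest in the means of both classes. Top2a read 77.0, 35.5 and 99.0 in the Adn-C/EBPα-/- arrays, against 50.1, 49.8 and 41.2 in the control arrays. Birc5 read 98.5, 64.0 and 145 in the knockouts, against 71.3, 69.1 and 53.2 in the controls. Prc1 read 221, 116 and 270.1 in the knockouts, against 144, 142 and 121 in the controls. In each of them knockout replicate 2 lay among or below the controls and the other two knockouts above them. The mean over the mitosis genes, relative to the controls, was 0.39, 0.06 and 0.56 (log2) in knockout replicates 1, 2 and 3, and over the replication genes 0.16, -0.02 and 0.44. Without knockout replicate 2, 6 of the 34 genes passed and the mitosis median became 0.57. Without knockout replicate 3 the replication median became 0.18, and without knockout replicate 1, control replicate 1 or control replicate 3 only 1 gene passed.

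The helicase genes were split at this time. Mcm5 read 261, 208 and 330.4 in the Adn-C/EBPα-/- arrays, against 176, 202 and 171 in the control arrays, groups apart by a narrow gap (0.49, limma adjusted p 0.148). Mcm7 read 20.7, 8.82 and 30.9 in the knockouts, against 46.7, 21.8 and 27.1 in the controls, with a log2 fold change of -0.42 ± 0.18 (limma adjusted p 0.317) and overlapping groups. Mcm2, Mcm3, Mcm4 and Mcm6 had 0.36, 0.33, 0.33 and 0.36, all overlapping. Pcna was not above background on any of the 3 knockout arrays, which read 2.69, 1.73 and 6.04, against 17.3, 8.86 and 5.41 in the controls. Of the controls 2 of 3 were above background, the groups overlapped and Pcna was not called (limma adjusted p 0.453), so no fold is given. Ccnd1 read 1275, 1266 and 1463 in the knockouts, against 1169, 1166 and 1389 in the controls, with overlap.

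After 1 month of high fat diet 9 of the 34 genes rose in the Adn-C/EBPα-/- arrays and none fell, at a time when 9.06% of all genes rose and 8.22% fell. They were the replication genes Cdc6, Mcm5, Tk1 and Rrm1, the G1 cyclin Ccnd1 and the mitosis genes Cdkn3, Cenpa, Bub1b and Nusap1. The median log2 fold change was 0.31 over the replication genes and 0.31 over the mitosis genes, against 0.01 over all genes. Knockouts lay above controls in 13 of the 34 genes, against 17.4% of all genes.

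Cenpa read 878, 1109 and 946 in the Adn-C/EBPα-/- arrays at 1 month, against 520.4, 603 and 520.2 in the control arrays (0.81 ± 0.15, limma adjusted p 0.000506). A dim additional Cenpa probe, above background on 10 arrays, had 0.30 (limma adjusted p over all probes 0.238). Cdc6 read 70.6, 73.7 and 65.8 in the knockouts, against 42.1, 40.3 and 33.5 in the controls (0.66 ± 0.11, limma adjusted p 0.000157). Cdkn3 read 77.8, 102 and 88.0 in the knockouts, against 45.0, 55.6 and 56.5 in the controls (0.62 ± 0.13, limma adjusted p 0.00184). All 3 had non-overlapping groups and passed whichever array was left out, as did Ccnd1, the cyclin that carries growth signals into the cell cycle. Ccnd1 read 2136, 2233 and 1886 in the knockouts, against 1381, 1615 and 1311 in the controls (0.54 ± 0.13, limma adjusted p 0.00662), and its 3 probes had 0.38 to 0.54. The probe with 0.38, above background on all 24 arrays, did not pass (limma adjusted p over all probes 0.129).

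The other 5 genes called at 1 month were less stable. Bub1b read 135, 177 and 116 in the Adn-C/EBPα-/- arrays, against 91.7, 96.6 and 71.1 in the control arrays (0.62 ± 0.17, limma adjusted p 0.0133). Another Bub1b probe, above background on all 24 arrays, had 0.14 at 1 month (limma adjusted p over all probes 0.661). Tk1 read 109, 100.5 and 64.3 in the knockouts, against 45.3, 61.2 and 51.7 in the controls (0.62 ± 0.19, limma adjusted p 0.0261). A dim additional Tk1 probe, above background on 11 arrays, had -0.12 (limma adjusted p over all probes 0.777). Rrm1, the large subunit of ribonucleotide reductase, read 244, 215 and 226 in the knockouts, against 170.3, 151 and 198 in the controls (0.37 ± 0.12, limma adjusted p 0.0286). Another Rrm1 probe passed, with 0.40 (limma adjusted p over all probes 0.0420), and a dim one, above background on 3 arrays, had -0.06 (0.872). No knockout array of these 3 genes fell among the controls. Nusap1 read 40.9, 82.3 and 58.8 in the knockouts, against 40.6, 39.9 and 33.6 in the controls (0.47, limma adjusted p 0.0335). Mcm5 read 292, 369.6 and 295 in the knockouts, against 217, 265 and 196 in the controls (0.47 ± 0.16, limma adjusted p 0.0484). The gap between the groups was narrow in Nusap1, whose knockout replicate 1 was close to its controls, and wider in Mcm5.

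Leaving out knockout replicate 2, control replicate 1 or control replicate 3 at 1 month brought the count to 5 of 34. Without knockout replicate 2, the array with the highest class means, the mitosis median was 0.11 and the replication median 0.18. Bub1b did not pass without knockout replicate 2 or control replicate 3 (largest limma adjusted p 0.101). Tk1, Rrm1, Nusap1 and Mcm5 each lost the call in 4 or 5 of the 6 fits that left out 1 array, with largest limma adjusted p of 0.124, 0.151, 0.253 and 0.220. The remaining helicase genes did not pass at 1 month. Mcm4 read 1072, 992 and 963 in the knockouts, against 744, 855 and 743 in the controls, groups apart (0.36, limma adjusted p 0.0548), and Mcm2 had 0.27. Mcm3, Mcm6 and Mcm7 had 0.18, 0.30 and 0.05 with overlapping groups. Top2a read 84.8, 123 and 81.1 in the knockouts, against 64.4, 68.3 and 57.1 in the controls, also apart (0.48, limma adjusted p 0.202). Pcna overlapped, with 8.93, 23.9 and 2.65 in the knockouts, against 4.95, 9.07 and 2.56 in the controls.

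The effect of C/EBPα loss was compared between times and diets by testing the differences. None of the 34 genes passed for 1 month minus 3 days of high fat diet, where 0.712% of all genes passed upwards and 0.978% downwards. At an unadjusted p below 0.05 limma gave 3 of the 34 genes and 1795 of all genes. The 3 were Pcna with a difference of 0.73, Cenpa with 0.50 and Ccnd1 with 0.43. For high fat diet minus chow at 3 days none of the 34 genes passed, nor did any of all genes (0% in either direction), and at an unadjusted p below 0.05 it was 0 of the 34 genes and 1740 of all genes. The median difference over the 34 genes was 0.15 for diet and -0.005 for time. Both differences use the same 6 arrays of the set at 3 days of high fat diet.

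Cdc6 and Cdkn3 were called higher in all 4 comparisons, as were 8 of the 15027 genes tested (0.0532%). For Cdc6 the log2 fold change was 0.45 after PPARγ loss, and after C/EBPα loss 0.52 on chow, 0.61 at 3 days and 0.66 at 1 month of high fat diet. For Cdkn3 it was 0.69 after PPARγ loss, and after C/EBPα loss 0.70 on chow, 0.61 at 3 days and 0.62 at 1 month of high fat diet. The group means of the 4 comparisons share no arrays. Each test, though, used the scatter of a gene pooled over the arrays of all groups, so the 4 calls are not independent. The SE was 0.11 for Cdc6 and 0.13 for Cdkn3 in every comparison. After C/EBPα loss neither gene passed on chow or at 3 days of high fat diet when only the arrays of that set were fitted. A dim additional Cdc6 probe, above background on 5 arrays, had -0.05 after PPARγ loss, so the Cdc6 result rests on 1 probe. The Cdkn3 result does too, since Cdkn3 had only 1 probe. Of the other tested genes, 15 were called in at least 1 comparison and 17 in none, among them Pcna, Mcm3, Mcm6, Mcm7, Tyms, Rrm2, Ccne1, Ccne2, Foxm1, Plk1, Aurka and Aurkb. The matching share of all genes was not counted. At 1 month alone 9.06% of all genes rose and 8.22% fell, so no excess is read from the count of 15.

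Replication and mitosis genes were set side by side in each comparison. The count called was 5 of 12 replication and 10 of 19 mitosis genes after PPARγ loss, 4 of 12 and 4 of 19 at 1 month of high fat diet, and 1 of 12 and 1 of 19 in each of the other two comparisons. Of all genes, 4.49% rose after PPARγ loss and 9.06% at 1 month of high fat diet. After C/EBPα loss 0.539% rose on chow and 0.765% at 3 days of high fat diet. The medians over the replication and the mitosis genes were 0.46 and 0.55 after PPARγ loss, 0.01 and 0.17 on chow after C/EBPα loss, 0.33 and 0.38 at 3 days and 0.31 and 0.31 at 1 month of high fat diet. For scale, arrays of 1 group differed in their class mean by an SD of 0.121 for replication and 0.155 for mitosis genes. Mitosis genes whose promoters carry the CHR-type letters, such as Top2a, Cdc20 and Kif22, were called after PPARγ loss, and so was Birc5, whose promoter window lacks them. The letters stood in 66.7% of 15 promoters of genes called after PPARγ loss and 42.9% of 14 promoters of tested genes not called there. Given the few promoters, no order is read from those shares. The class difference was not tested because the list was chosen with results of these data known.

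**Figure D3:**
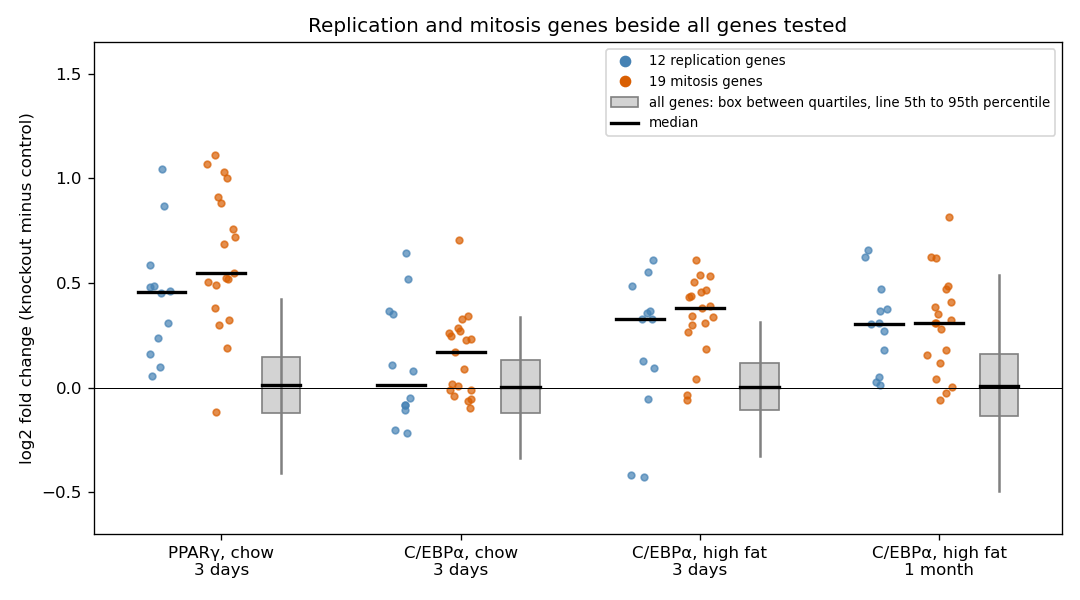
Log2 fold change, knockout minus control, of the 12 replication and 19 mitosis genes (points, black line at the median) beside all 15027 genes (box between the quartiles, line from the 5th to the 95th percentile). Both classes sit above the centre of all genes after PPARγ loss, at 3 days and at 1 month of high fat diet, and near it in the chow Adn-C/EBPα-/- arrays.

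Genes of the same processes outside the list were read as well. Of 35 further replication genes, 8 rose after PPARγ loss, where 4.49% of all genes rose, among them Uhrf1, which keeps DNA methylation through replication (0.89), Mcm10 (0.79), the chromatin assembly subunit Chaf1b (0.56), DNA ligase Lig1 (0.55), the single strand binding subunit Rpa1 (0.44) and the flap nuclease Fen1 (0.34). Fen1 and Rpa1 also rose at 3 days of high fat diet (0.37 and 0.34). At 1 month Cdt1, which licenses origins with Cdc6, rose by 0.50 and Rfc2 by 0.25, while 2 genes fell. These are no more of the 35 than the 9.06% and 8.22% of all genes that rose and fell at 1 month. Cdc45, which activates the loaded helicase, fell by 0.99 ± 0.10 (log2; limma adjusted p 7.91e-07) and Gins2, a subunit of the same active helicase, by 0.53. The fall of Cdc45 was larger at 1 month than at 3 days by 0.75 (limma adjusted p 0.00924). Of 37 further mitosis genes, 11 rose after PPARγ loss, among them the mitotic kinase Pbk (1.12), the kinetochore subunit Ndc80 (0.97), Lmnb1 (0.67), Cenpn (0.63), Kif18b (0.62) and Cenpm (0.49). The central spindle kinesin Kif23 rose on chow after C/EBPα loss (0.59), none rose at 3 days of high fat diet, and 2, Cenpn (0.50) and Cenpm (0.41), rose at 1 month, again no more than the share of all genes.

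Genes that open or brake the cycle were read too. Of 32 tested, E2f1, an activator of replication genes (0.54), and Cdkn1a, the inhibitor p21 (0.49), rose after PPARγ loss, while the inhibitor Cdkn2c fell by 0.60, the cyclin Ccnd2 by 0.45 and the E2F partner Tfdp1 by 0.27, 2 and 3 genes where 4.49% and 4.46% of all genes rose and fell. None changed on chow after C/EBPα loss. At 3 days of high fat diet Ccnd2 fell by 0.70, Cdkn2c by 0.50 and Rb1, the retinoblastoma repressor of E2F, by 0.46, where 1.46% of all genes fell. At 1 month 8 fell, where 8.22% of all genes fell, among them Ccnd2 by 1.01, Cdkn2b by 0.97, Cdkn2c by 0.87, Cdkn1a by 0.71, Rb1 by 0.69 and Ccnd3 by 0.40. Ccnd1 and Ccnd2, both D-type cyclins, therefore moved in opposite directions at 1 month.

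Markers of other cell types moved in the same comparisons. Of 17 tested macrophage markers, 6 rose after PPARγ loss, 0 on chow after C/EBPα loss, 1 at 3 days and 15 at 1 month of high fat diet, with median log2 fold changes of 0.47, 0.18, 0.23 and 0.96. The shares of all genes that rose were 4.49%, 0.539%, 0.765% and 9.06%. Their summed level was 29508 to 35138 in the Adn-PPARγ-/- arrays, against 22999 to 25150 in the controls, and at 1 month 37316 to 51329 in the Adn-C/EBPα-/- arrays, against 22286 to 25111 in the controls. It overlapped between groups at 3 days of high fat diet, with 23561 to 31446 in the knockouts and 19337 to 26864 in the controls, and did not on chow, with 37078 to 38891 in the Adn-C/EBPα-/- arrays and 31428 to 36089 in the controls. Cd68, Itgax and Spp1 were not tested. Of 13 stromal progenitor markers, 3 rose after PPARγ loss, none on chow after C/EBPα loss, none at 3 days and 10 at 1 month. The medians were 0.31, 0.09, 0.24 and 0.59. Their summed level was 51269 to 58096 in the Adn-PPARγ-/- arrays, against 43070 to 50287 in the controls. At 1 month it was 54253 to 60641 in the Adn-C/EBPα-/- arrays, against 40068 to 46097 in the controls. It was also apart at 3 days of high fat diet, with 39902.5 to 44034 in the knockouts, against 31601 to 38453 in the controls. On chow it overlapped, with 52493 to 56208 in the Adn-C/EBPα-/- arrays, against 52785 to 55857 in the controls. Ly6a was not tested. The part of macrophages and stromal cells in the higher cell cycle genes was not tested.

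Of 9 tested B and T lymphocyte markers, none rose in 3 of the comparisons and 1, Cd37, rose at 1 month. Their summed level ranged from 349 to 405 in the Adn-PPARγ-/- arrays, against 355 to 468 in the controls, with overlap. On chow it was 563 to 913 in the Adn-C/EBPα-/- arrays, against 736 to 1781 in the controls, and at 1 month 347 to 405 in the knockouts, against 232 to 738 in the controls. At 3 days of high fat diet it was 226 to 2219 in the knockouts, against 239 to 490 in the controls. The highest value was that of knockout replicate 3, which also had the highest levels of Top2a, Birc5 and Prc1 in that set, and the part of lymphocytes in its levels was not tested. Cd8a, Lck, Cd79a, Trbc2 and Ighm were among the markers not tested, which leaves several defining markers unread. Adipocyte markers fell as well, 9 of 11 after PPARγ loss, 1 on chow, 2 at 3 days and 10 at 1 month, where 4.46%, 0.552%, 1.46% and 8.22% of all genes fell. The remaining marker at 1 month, Cidea, named after its value was seen, rose by 1.04.

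Of 10 tested neutrophil markers, 2 rose after PPARγ loss, Prtn3 (2.81) and Camp (1.25, limma adjusted p 0.0239), where 4.49% of all genes rose. There 9 had positive log2 fold changes, and the median was 0.52. Their summed level was 3318 to 4471 in the Adn-PPARγ-/- arrays, against 701 to 796 in the controls, and their mean relative to the controls was 0.63, 0.73 and 0.66 (log2) in the knockouts, against 0.02, 0.04 and -0.06 in the controls. These groups were far apart. After C/EBPα loss the medians were negative, -0.32 on chow, -0.24 at 3 days and -0.11 at 1 month. Prtn3 rose at 3 days (1.99), where 0.765% of all genes rose. At 1 month Prtn3 (1.33) and Retnlg (1.95) rose and 2 markers fell, among them Elane by 0.51. At that time 9.06% of all genes rose and 8.22% fell. The summed level was 2265 to 2850 in the Adn-C/EBPα-/- arrays on chow, against 1989 to 2151 in the controls. The mean relative to the controls was lower there instead, with -0.36, -0.30 and -0.36 (log2) in the knockouts, against 0.04, -0.14 and 0.10 in the controls. A sum weighs bright markers more than a mean of log2 levels does. The summed level was 1032 to 1647 in the knockouts, against 462 to 1565 in the controls, at 3 days. At 1 month it was 716 to 917 in the knockouts, against 597 to 696 in the controls. The knockout means relative to the controls at 3 days were -0.18, -0.30 and 0.19 (log2), against 0.74, -0.29 and -0.45 in the controls. At 1 month these means were 0.03, 0.07 and 0.15 in the knockouts, against 0.14, -0.05 and -0.09 in the controls. Both sets of means overlapped between groups. Ly6g was not tested, and the part of neutrophils in the higher cell cycle genes was not tested.

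**Figure D4:**
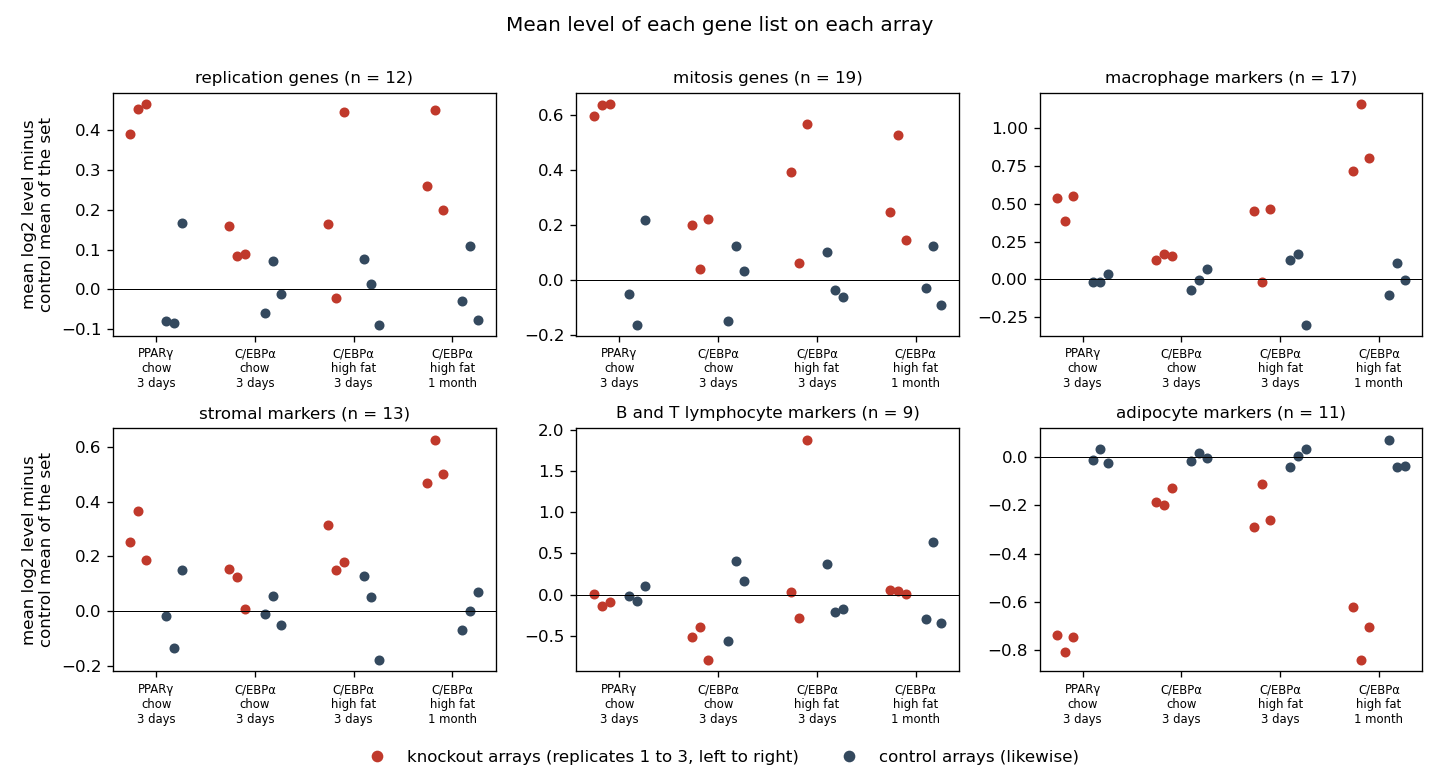
Mean log2 level of each gene list on every array, relative to the mean of the controls of its set, knockouts in red to the left of controls in dark grey: 12 replication and 19 mitosis genes beside 17 macrophage, 13 stromal, 9 lymphocyte and 11 adipocyte markers. Knockout replicate 2 at 3 days of high fat diet is near its controls in the cell cycle and macrophage lists (-0.01 for macrophages), and knockout replicate 3 reaches 1.88 in the lymphocyte list.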

How the data were processed

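The authors' deposited table holds 1 intensity per probe and array for 45281 probes on a linear scale. How the authors scanned and normalized is not stated in the labels. Judged by the values, the sets of 6 arrays were quantile-normalized separately. Pearson's r within groups had a median of 0.996 (lowest 0.992), and no array repeated another. Another deposited table, of signals not yet normalized, was left aside because the names of its 96 value columns match no sample. Titles set the groups, since controls carry the knockout's genotype in the genotype field.

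Background was estimated per set from the peak of log2 intensity (bandwidth 0.03) and was 113 (PPARγ), 131 (C/EBPα, chow), 103 (3 days of high fat diet) and 108 (1 month). Intensities were corrected with normexp, 16 was added and log2 taken. Probes above background (5% false positives) in at least 3 of 24 arrays numbered 31560. By the platform annotation 34885 probes had 1 symbol and 18 several, 10378 were unlisted, and 34807 symbols were updated through Entrez identifiers to RefSeq (GRCm38.p6). Limma 3.58.1 in R 4.3.3 was fitted on 8 group means (lmFit, eBayes, 16 residual degrees of freedom, two-sided, Benjamini-Hochberg), after tests on simulated data. The number of arrays limits the precision. Python 3.11.15 read the promoters. Alternatives covered background, offset, filter, probes, arrays, weights, the replicate number as a block and the threshold. Of 12 same-numbered pairs 0 had deviations correlated over 0.1 (r -0.26 to 0.09), so no pairing by number was seen over all genes. Pairing that touches few genes could be missed by this check.

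The genes, gene lists and rule for naming genes (all list members, the 10 smallest adjusted p per comparison with values per array, up to 6 called genes per further list and 3 per marker list) were chosen with earlier results of these data known. Germinal centre, endothelial, epithelial and erythroid marker lists were also read. After PPARγ loss S1pr2 and Slc4a1 (0.54) rose and Rgs13 fell, where 4.49% of all genes rose and 4.46% fell. On chow after C/EBPα loss Erg fell (log2 fold change -0.57), where 0.552% of all genes fell. Fas rose at 3 days of high fat diet (0.40), where 0.765% of all genes rose. At 1 month S1pr2 rose (0.76), and Xbp1 (-0.31) and 5 of 10 endothelial markers fell. There 9.06% of all genes rose and 8.22% fell. No epithelial marker was called.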

Additional observations from a re-analysis of the deposited data

Results flagged for a closer look

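The effect of the 2 knockouts on Bub1b, the spindle checkpoint gene, differed on chow. The log2 fold change was 1.00 in the Adn-PPARγ-/- arrays and 0.01 in the Adn-C/EBPα-/- arrays, each against its own controls, and the tested difference was 1.00 ± 0.24 (limma adjusted p 0.0280). It did not pass in 8 of 12 fits that each left out 1 array. The other Bub1b probe on the array gave 0.37 and -0.04.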

How the results depend on the processing

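No gene that passed the test changed direction under an alternative. Without background correction the median log2 fold change was 0.20, 0.15 and 0.17 over the replication genes (PPARγ loss, 3 days and 1 month of high fat diet) and 0.34 and 0.18 over the mitosis genes (PPARγ loss, 3 days), and with an offset of 50 the replication median after PPARγ loss was 0.31. Fitting only the 6 arrays of a set left 0 genes called on chow after C/EBPα loss and 0 at 3 days of high fat diet, and array weights left 0 on chow. At a threshold of 0.01 the counts were 9 (PPARγ loss), 0 (chow), 1 (3 days), 4 (1 month) and 0 for PPARγ minus C/EBPα. That difference had 4 genes at a threshold of 0.10, 4 without background correction, 3 with an offset of 50 and 3 with a trended, robust eBayes. Counts of CHR-type letters depend on the window: in the 250 bases before the start they stood in 45.5% of mitosis promoters. Of 29 single-gene calls, 2 were lost without the filter and 2 with every probe tested (in each case Cdc20 after PPARγ loss and Mcm5 at 1 month), 7 with the arrays of 1 set alone, 2 with array weights (Cdc6 and Cdkn3 on chow, limma adjusted p 0.0844 and 0.0563) and 15 at the threshold of 0.01. A background peak smoothed at 0.05, chosen after seeing the data, changed none.

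Leaving out each array in turn gave 9 to 18 genes called after PPARγ loss, 0 to 2 on chow, 1 to 6 at 3 days, 5 to 8 at 1 month, and 0 to 4 for PPARγ minus C/EBPα. The replication medians ranged over 0.36 to 0.48, -0.01 to 0.10, 0.18 to 0.37 and 0.18 to 0.39, and the mitosis medians over 0.48 to 0.68, 0.04 to 0.23, 0.23 to 0.57 and 0.11 to 0.43, in the same order of comparisons. With the replicate number as a block, 14, 2, 2 and 8 genes were called and 1 for PPARγ minus C/EBPα, Mcm4 after PPARγ loss (0.0798) and Mcm5 at 1 month (0.0909) being lost. Of 12 pairs, 1 correlated best with its own number. The cause of these changes was not tested. Signal near background limits Pcna, Stmn1, Kif20a, Kif11 and Spc25.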
